A study of Mus musculus with 6 samples.

Results

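The genes followed here are 10 markers of lung fibroblasts and smooth muscle: Dcn, Lum, Inmt, Mfap4, Pdgfra, Tcf21, Acta2, Tagln, Npnt and Eln. They were found by gene name among the 13931 genes listed in 6 RNA sequencing libraries, and each name matched 1 gene. The libraries came from mouse lung cells prepared as alveolar epithelial type 2 (AT2) cells, the surfactant-making cells of the air sac. In 3 libraries the C57BL/6 mice had been given bleomycin at 1 U/kg, an antibiotic that breaks DNA and injures the lung, and in the other 3 the C57BL/6 mice had been given PBS, a buffered saline. The series assigns 3 mice to each group, without saying outright that each library is 1 mouse, and its title and design speak of multiple exposures. The number, route and spacing of the doses, the age of the mice, the time of harvest and the way the cells were isolated are unstated in these sources. None of the 10 genes is among the usual markers of the labelled cell type, although epithelial cells also make Npnt.

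Fibroblasts of the lung lie beside the alveolar epithelium and lay down collagen, elastin and proteoglycans. Alveolar fibroblasts are recognised by the receptor Pdgfra and the transcription factor Tcf21, and in mouse lung also by the methyltransferase Inmt and the matrix protein Npnt. Smooth muscle cells of airways and vessels, and the myofibroblasts that appear after injury, carry the contractile proteins encoded by Acta2 and Tagln. Bleomycin is widely used as a model of lung fibrosis, in which matrix-producing cells increase in the tissue as a whole. AT2 preparations are a different sample, in which RNA of mesenchymal cells comes from whatever cells of that kind were carried along.

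Values are FPKM, the fragments assigned to a transcript scaled by transcript length and by all mapped fragments of that library, summed here over the listed transcripts of a gene. The listed FPKM of a library added up to between 253146 and 300697, and the read depth behind the values is unknown. Sftpc, the AT2 gene of surfactant protein C, ranked 1 among 13931 genes by mean FPKM in the bleomycin and in the PBS libraries. That rank alone does not show how pure the preparations were. Summed FPKM of 15 AT2 genes was lower after bleomycin, at 3466 to 7811, than in the PBS libraries, at 18549 to 26463. Of these genes Cebpa, chosen after its values were seen, was listed at 0 in the PBS libraries. It was not among the tested genes. RNA of other cells was higher after bleomycin: the 10 leukocyte genes summed to 1094 to 1503 FPKM in the bleomycin libraries and to 71.4 to 97.6 FPKM in the PBS libraries. The 12 endothelial genes summed to 402 to 716 FPKM in the bleomycin libraries and to 47.2 to 57.9 FPKM in the PBS libraries, where Cldn5 was listed at 0 throughout. Cldn5 is among the genes with few exons and values near 0 in some libraries that are described with Tcf21 below. FPKM are relative to the whole library, and the part that these other cells play in the values below was not tested. In bulk RNA, fewer cells of a type and less RNA per cell cannot be told apart.

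The comparison of bleomycin with PBS asks how each gene's RNA differed between preparations from bleomycin-exposed and PBS-exposed lungs. In the fit across all 12326 tested genes (limma on log2(FPKM + 1), Benjamini-Hochberg adjusted p under 0.05), 3 of the 10 genes fell after bleomycin, namely Tagln, Npnt and Mfap4. Of all tested genes, 7.34% were called lower and 15.2% higher. None of the 10 genes rose: all 10 had a fold change below 0, as did 43.9% of all tested genes, and 9 of the 10 were lower at an unadjusted p under 0.05, as were 13.8% of all tested genes. At that threshold 23.0% of all tested genes were higher. The other 7 missed the threshold, with adjusted p between 0.0595 and 0.136. In 8 of the 10 genes every bleomycin library lay below every PBS library, an arrangement found in 16.4% of all tested genes. The opposite arrangement was found in 27.2% of all tested genes and in 0 of the 10. The median log2 fold change of the 10 genes was -1.38, with a range of -4.22 to -0.73, beside a median of 0.09 over all tested genes. With the libraries set to equal medians the median of all genes moved to -0.07 and that of the 10 genes to -1.58, 5 of the 10 were called lower, and the calls over all genes split into 1475 higher and 1412 lower, in place of 1871 and 905. Fold changes of all 10 genes stayed below 0 under each of 17 alternative settings.

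**Figure D1:**
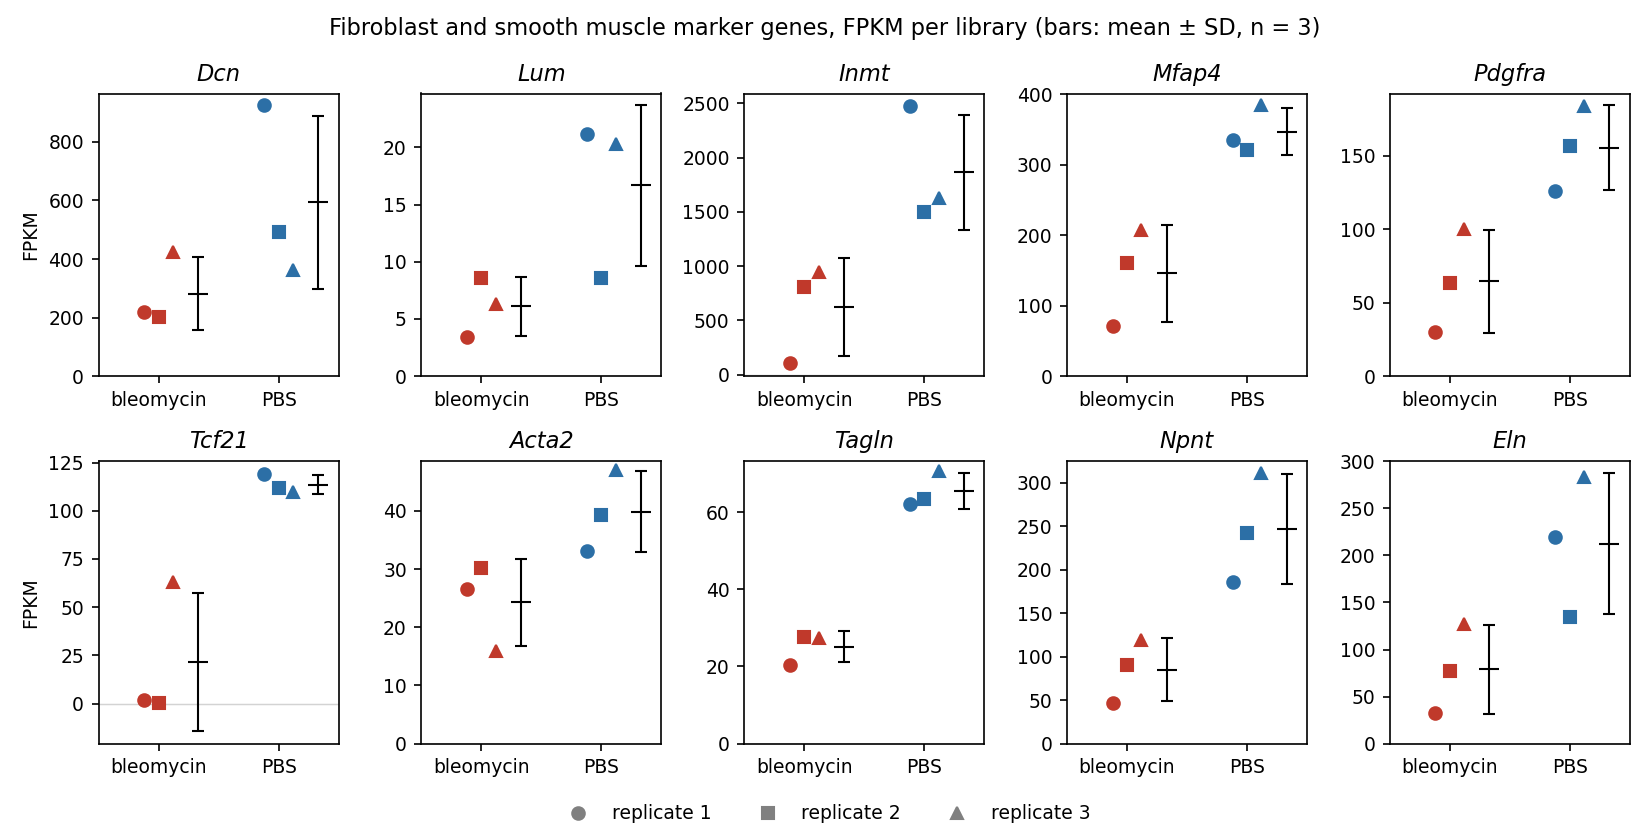
FPKM of the 10 genes, 1 panel per gene on its own linear axis, with the bleomycin libraries left of the PBS libraries; symbols mark the replicate and bars the mean ± SD (n = 3 each). Only Dcn and Lum have bleomycin values that reach into the PBS range, and Tcf21 has bleomycin values of 1.60 and 0.390 FPKM beside 1 of 63.1 FPKM, which takes its SD bar below 0.

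**Figure D2:**
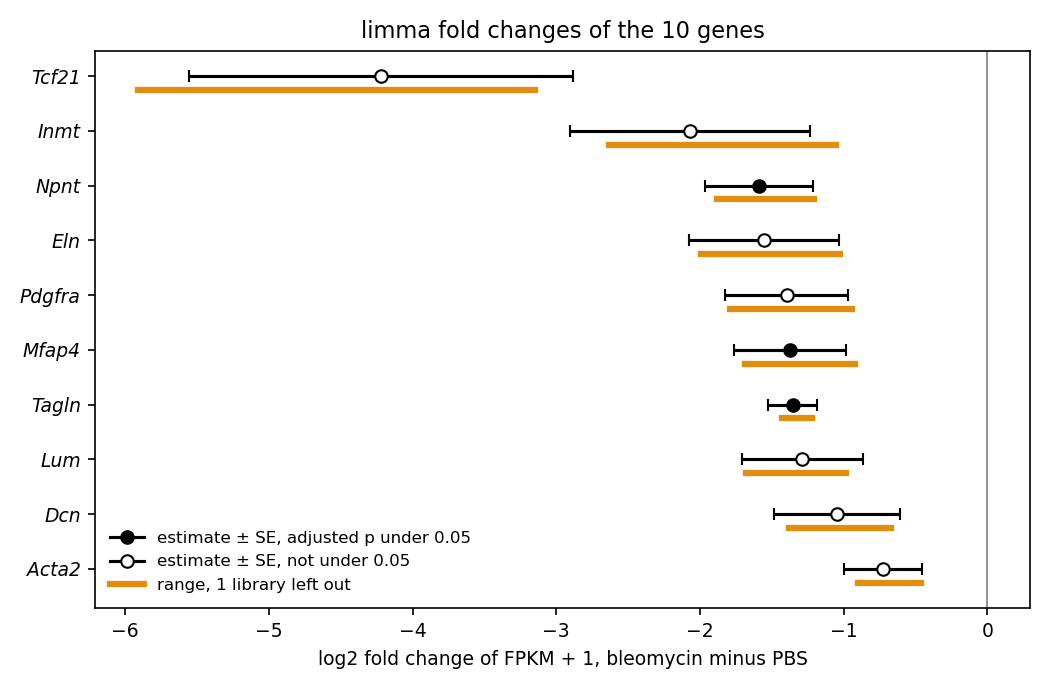
Log2 fold changes of the 10 genes from limma (x axis, bleomycin minus PBS, on log2(FPKM + 1)), with circles and bars for the estimate ± SE and orange bars for the range when each library is left out in turn. All estimates and ranges lie below 0; filled circles mark Tagln, Npnt and Mfap4, whose adjusted p was under 0.05.

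Among the genes that define alveolar fibroblasts, Pdgfra encodes the alpha receptor for platelet-derived growth factor (ENSMUSG00000029231.15, mm10 chr5:75152292-75198215, plus strand). Its values were 30.1, 63.2 and 100.2 FPKM in the bleomycin libraries, against 125.7, 156.5 and 183.8 FPKM in the PBS libraries. The groups did not overlap, and bleomycin replicate 1 was the lowest. The mean was 64.5 ± 35.0 FPKM after bleomycin and 155 ± 29.1 FPKM after PBS (SD, n = 3 each), which is 2.41-fold lower. The log2 fold change of -1.40 ± 0.43 (SE) had an adjusted p of 0.0595 in limma and so was not called. It was called without bleomycin replicate 3 (-1.79, adjusted p = 0.0235), with equal medians (0.0392) and with library weights (0.0290), and it was -0.94 without bleomycin replicate 1 (0.0844).

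Tcf21 encodes a basic helix-loop-helix transcription factor needed for lung mesenchyme (ENSMUSG00000045680.7, mm10 chr10:22817279-22820128, minus strand). It was listed at 1.60, 0.390 and 63.1 FPKM in the bleomycin libraries and at 119.1, 111.6 and 109.7 FPKM in the PBS libraries. The PBS libraries lay within 1.09-fold of each other, whereas the highest bleomycin library was 162 times the lowest. No bleomycin library reached the PBS range. The fold change of -4.22 ± 1.34 was the largest of the 10 and was not called (limma adjusted p = 0.0669). It was called without bleomycin replicate 3 (-5.91, adjusted p = 0.000838) and with library weights (-5.16, 0.0223), and it was -3.60 without bleomycin replicate 1 and -3.15 without replicate 2 (0.182 and 0.160).

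Only 3 of the 13931 genes were below 2 FPKM in bleomycin replicates 1 and 2 and at 50 FPKM or more in the other 4 libraries, a search made after the values of Tcf21 had been seen. The other two were Gm11808, with 0, 0 and 267 FPKM in the bleomycin libraries and 213, 195 and 164 FPKM in the PBS libraries, and Rps27rt, with 0, 0 and 495 FPKM in the bleomycin libraries and 440.4, 331 and 298 FPKM in the PBS libraries. Both are annotated with 1 exon and Tcf21 with 2. Over all 41 sets of 1 to 3 libraries, 9 genes were near 0 in the set and at 50 FPKM or more outside it. Of these 9 genes, 8 have 1 exon, and Tcf21, which prompted the search, is the only gene with 2. Of the 869 genes with a mean of 50 FPKM or more, 4.14% have 1 or 2 exons. The endothelial gene Cldn5, with 1 exon, is also among the 9. It was at 68.1, 145.6 and 75.6 FPKM in the bleomycin libraries and at 0 in all PBS libraries. The leukocyte gene Cd52, with 2 exons and likewise chosen after its values were seen, was at 0.583, 1.13 and 199 FPKM in the bleomycin libraries and at 9.48, 10.3 and 17.6 FPKM in the PBS libraries, while 9 of the 10 leukocyte genes rose after bleomycin. The part that short gene structure plays in the Tcf21 values was not tested.

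Inmt encodes indolethylamine N-methyltransferase, an enzyme that methylates small amines (ENSMUSG00000003477.5, mm10 chr6:55170626-55175043, minus strand). Its values were 105, 812 and 945 FPKM in the bleomycin libraries, against 2472, 1498 and 1628 FPKM in the PBS libraries. It was the most abundant of the 10 genes in both groups and ranked 25 among all listed genes by mean in the bleomycin libraries and 6 in the PBS libraries. The groups did not overlap, but bleomycin replicate 1 lay far below the other two, and the log2 fold change of -2.07 ± 0.83 was not called (limma adjusted p = 0.124). Without bleomycin replicate 1 it was -1.05 (adjusted p = 0.0941). Nnmt, which encodes a related methyltransferase and has 1.89, 2.89 and 9.18 FPKM in the bleomycin libraries and 6.55, 7.28 and 11.04 FPKM in the PBS libraries, was not called either (-0.91, adjusted p = 0.223).

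The small leucine-rich proteoglycans decorin and lumican bind collagen fibrils and limit their width. Dcn (ENSMUSG00000019929.15, mm10 chr10:97479500-97518162, plus strand) had 219.6, 200.5 and 425 FPKM in the bleomycin libraries and 927, 491 and 364 FPKM in the PBS libraries. Bleomycin replicate 3 lay above PBS replicate 3, so the groups overlapped, and the log2 fold change of -1.04 ± 0.44 was not called (limma adjusted p = 0.136). Without PBS replicate 1, the highest library, it was -0.67 (adjusted p = 0.291). Dcn was the second gene in abundance in both groups.

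Lum (ENSMUSG00000036446.4, mm10 chr10:97565501-97572703, plus strand) lies downstream of Dcn on the same strand and was the least abundant of the 10 genes in both groups. It had 3.47, 8.61 and 6.27 FPKM in the bleomycin libraries and 21.2, 8.60 and 20.3 FPKM in the PBS libraries. Bleomycin replicate 2 and PBS replicate 2 were nearly equal, and without PBS replicate 2 the log2 fold change of -1.29 ± 0.42 (limma adjusted p = 0.0717) was -1.68 and was called (adjusted p = 0.0311).

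Elastin, encoded by Eln, is the core of elastic fibres, which let the lung recoil (ENSMUSG00000029675.12, mm10 chr5:134702593-134747323, minus strand). Its values were 32.5, 77.7 and 126.7 FPKM in the bleomycin libraries, against 219, 134 and 284 FPKM in the PBS libraries. The groups did not overlap, but the lowest PBS library was close to the highest bleomycin library, and the log2 fold change of -1.55 ± 0.52 was not called (limma adjusted p = 0.0777). It was called without bleomycin replicate 3 (-1.99, adjusted p = 0.0391) and with library weights (0.0485), and it was -1.03 without bleomycin replicate 1 (0.146).

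Mfap4 encodes a microfibril-associated glycoprotein of elastic fibres (ENSMUSG00000042436.12, mm10 chr11:61485431-61488900, plus strand). It had 71.0, 160.0 and 207 FPKM in the bleomycin libraries, against 334, 321 and 385 FPKM in the PBS libraries. Every bleomycin library lay below every PBS library, and the PBS libraries were close together. Mfap4 fell to a mean of 146 ± 69.1 FPKM after bleomycin, against 347 ± 33.8 FPKM after PBS (SD, n = 3 each; log2 fold change -1.37 ± 0.39, limma adjusted p = 0.0492). The call stood just under the threshold and was lost in 10 of 17 alternative settings, with adjusted p between 0.0514 and 0.129 where it was lost. Among those 10 were the fits without bleomycin replicate 2 (adjusted p = 0.0907) and without PBS replicate 1, 2 or 3 (0.111, 0.103 and 0.129).

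Nephronectin, encoded by Npnt, is a basement membrane protein that binds integrin alpha 8 beta 1 on mesenchymal cells (ENSMUSG00000040998.18, mm10 chr3:132881745-132950291, minus strand). The values were 46.4, 90.5 and 118.9 FPKM in the bleomycin libraries, against 185.9, 242 and 312 FPKM in the PBS libraries. The groups did not overlap, with bleomycin replicate 1 lowest. Npnt fell to 85.3 ± 36.5 FPKM after bleomycin, against 247 ± 63.1 FPKM after PBS (SD, n = 3 each), 2.89-fold lower, with a log2 fold change of -1.59 ± 0.38 (limma adjusted p = 0.0276). The call was lost without bleomycin replicate 2 (adjusted p = 0.0639), PBS replicate 2 (0.0749) or PBS replicate 3 (0.0864). Of 4 tested genes of nephronectin partners, Frem1, which encodes a basement membrane protein, fell (-1.15, adjusted p = 0.0285, and 0.0579 to 0.0904 in the 5 fits without bleomycin replicate 1 or 2 or without a PBS library, and 0.319 on the highest transcript alone). Itga8, the integrin alpha 8 gene, had a log2 fold change of -1.21 (adjusted p = 0.0775), and Itgb1 and Itgav had -0.22 and -0.25 (adjusted p = 0.340 and 0.461).

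Of the 6 listed Npnt transcripts, Npnt-001 to Npnt-004 differ in their coding part by 2 exons, and Npnt-005 and Npnt-006 have shorter coding parts still. The 2 exons are shown because the deposited values separate transcripts with and without them. Both are given on the minus strand in GRCm38, the assembly of mm10, with GENCODE M21 exon limits, in lower case throughout since no part of them is singled out. The first, chr3:132931582-132931632, has 51 bases and adds 17 residues in frame in Npnt-002 and Npnt-004, and the second, chr3:132914373-132914465, has 93 bases and adds 31 residues in frame in Npnt-003 and Npnt-004.
First Npnt exon: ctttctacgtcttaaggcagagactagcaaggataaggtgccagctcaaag
Second Npnt exon: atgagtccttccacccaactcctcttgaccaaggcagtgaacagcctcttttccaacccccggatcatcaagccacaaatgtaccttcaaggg

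Transcripts with the first exon made up 26.7%, 26.0% and 38.6% of Npnt FPKM in the bleomycin libraries and 31.0%, 30.3% and 30.0% in the PBS libraries. The means were 30.4% ± 7.07 after bleomycin and 30.4% ± 0.504 after PBS (SD, n = 3 each; two-sided exact permutation test, p = 1.0). Those with the second exon made up 72.6%, 62.8% and 90.2% in the bleomycin libraries and 93.7%, 82.5% and 75.3% in the PBS libraries, with overlapping groups (two-sided exact permutation test, p = 0.4). With 3 libraries against 3 the smallest p of this test is 0.1. Npnt-003, with the second exon alone, was the most abundant form in all 6 libraries, at 42.7% to 57.1% of the gene in the bleomycin libraries and 50.3% to 64.7% in the PBS libraries. Npnt-006 was listed at 0 in the 3 bleomycin libraries and at 2.15, 0 and 19.6 FPKM in the PBS libraries.

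Of the other genes, Dcn, Mfap4 and Pdgfra have more than 1 listed transcript. Dcn-201 and Dcn-202 both have 1062 coding bases and differ at the 5′ end. Dcn-201 took 54.6%, 49.1% and 57.6% of the gene in the bleomycin libraries and 44.4%, 43.3% and 47.0% in the PBS libraries. Each bleomycin library was above each PBS library, which gives p = 0.1, the smallest the two-sided exact permutation test allows with 3 against 3. Mfap4-001, one of a pair, had 69.0%, 57.6% and 57.6% in the bleomycin libraries and 57.5%, 54.6% and 52.4% in the PBS libraries, an arrangement without overlap and with the same p of 0.1 in that exact test, although bleomycin replicates 2 and 3 exceeded the highest PBS library by less than the spread within PBS. For Pdgfra, the transcripts of full coding length (3267 bases) held 85.3%, 86.7% and 81.4% in the bleomycin libraries and 83.0%, 87.5% and 92.6% in the PBS libraries, with overlapping groups (exact permutation p = 0.4). The shares of transcripts of a gene are StringTie's division of shared reads, and the error of that division is unknown.

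**Figure D3:**
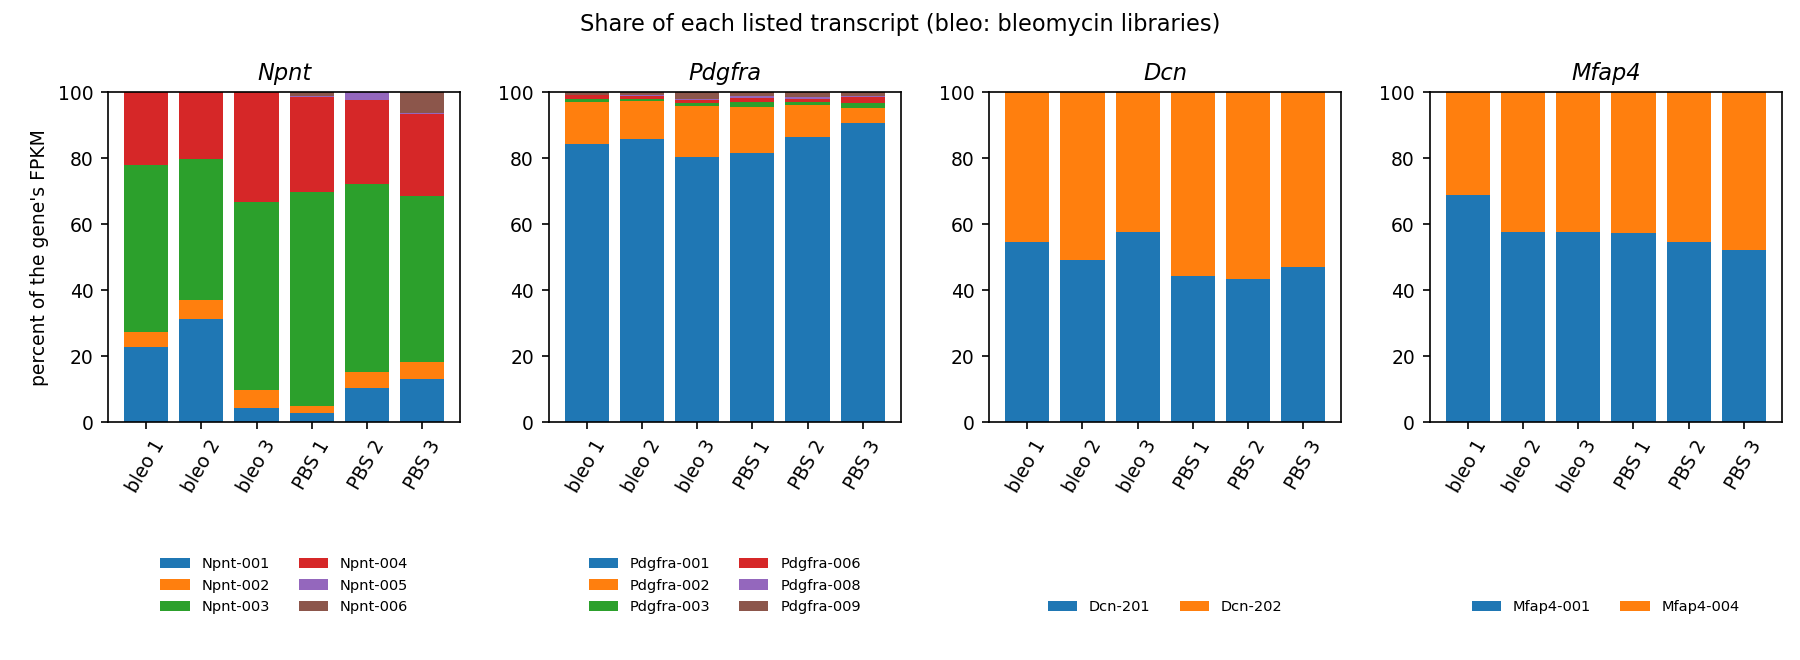
Share of each listed transcript in the FPKM of its gene (y axis, percent), as stacked bars for each library, for the 4 genes with more than 1 listed transcript. Npnt-003 is the widest band of Npnt in all 6 libraries, and Dcn-201 is larger in each bleomycin library (49.1% to 57.6%) than in each PBS library (43.3% to 47.0%).

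Among the contractile genes, Tagln encodes transgelin (SM22), an actin-binding protein of smooth muscle (ENSMUSG00000032085.4, mm10 chr9:45929628-45936058, minus strand). It had 20.5, 27.7 and 27.4 FPKM in the bleomycin libraries, against 62.2, 63.4 and 70.7 FPKM in the PBS libraries. The libraries of each group lay close together and the groups were far apart: the highest bleomycin library was 1.35 times the lowest, the smallest such spread among the 10 genes. Tagln fell to 25.2 ± 4.07 FPKM after bleomycin, against 65.5 ± 4.62 FPKM after PBS (SD, n = 3 each), 2.60-fold lower, with a log2 fold change of -1.35 ± 0.17 (limma adjusted p = 0.00241). It was called in all 17 alternative settings, with adjusted p between 0.00144 and 0.0135.

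Acta2 encodes smooth muscle alpha actin, the usual marker of smooth muscle and myofibroblasts (ENSMUSG00000035783.8, mm10 chr19:34241090-34255336, minus strand). Its values were 26.6, 30.2 and 15.9 FPKM in the bleomycin libraries, against 33.1, 39.4 and 47.0 FPKM in the PBS libraries. The groups did not overlap, but bleomycin replicate 2 was close to PBS replicate 1. The log2 fold change of -0.73 ± 0.27 was the smallest of the 10 and was not called (limma adjusted p = 0.101). Without bleomycin replicate 3 it was -0.46 (adjusted p = 0.165). Acta2 is similar in sequence to the other actin genes, and how reads shared among them were divided is not stated in the sources used here.

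The promoter of Acta2 is shown because Acta2, alone of the 10 genes, was lowest in bleomycin replicate 3. The 250 bases before the RefSeq start (GRCm38.p6 chr19:34255374-34255623, minus strand, 5′ to 3′) have 53.6% GC, with motif matches in capitals.
Acta2 promoter: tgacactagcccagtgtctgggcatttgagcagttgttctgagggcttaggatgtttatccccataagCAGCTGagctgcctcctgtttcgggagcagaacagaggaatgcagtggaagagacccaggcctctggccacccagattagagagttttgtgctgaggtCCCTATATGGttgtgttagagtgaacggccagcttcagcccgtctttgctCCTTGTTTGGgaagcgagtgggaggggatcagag

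Capitals mark CAGCTG (an E-box), 182 to 177 bases before the start, and 2 matches to the CArG box with at most 1 mismatch, CCCTATATGG at 84 to 75 and CCTTGTTTGG at 34 to 25 bases before the start. The CArG box, the binding motif of serum response factor, a known regulator of contractile genes, was searched as CC, then 6 bases of A or T, then GG, and both strands were read for each motif. Of 32851 RefSeq promoter windows of this length, 18.6% hold a CArG box with at most 1 mismatch, 1.47% an exact one and 13.0% CAGCTG. RefSeq windows were matched for 5 of the 10 genes, the others being Inmt, Pdgfra, Tcf21 and Npnt; Dcn, Lum, Mfap4, Tagln and Eln are only named.

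In the PBS libraries the genes ran, by mean FPKM, in the order Inmt, Dcn, Mfap4, Npnt, Eln, Pdgfra, Tcf21, Tagln, Acta2 and Lum. The order after bleomycin kept the first 6 and then ran Tagln, Acta2, Tcf21 and Lum. After bleomycin the ranges of all neighbours in this order overlapped except those of Pdgfra and Tagln. In the PBS libraries the overlapping neighbours were Dcn and Mfap4, Npnt and Eln, and Eln and Pdgfra. Together the 10 genes summed to 557, 1471 and 2036 FPKM in the bleomycin libraries, against 4499.9, 3066 and 3404 FPKM in the PBS libraries. That is 0.516% ± 0.292 of the listed FPKM after bleomycin and 1.34% ± 0.163 after PBS (SD, n = 3 each), without overlap between the groups.

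The bleomycin libraries differed among themselves more than the PBS libraries did for 9 of the 10 genes, by the ratio of the highest to the lowest library. The exception was Dcn, with 2.12 in the bleomycin and 2.55 in the PBS libraries. For Lum the ratios were nearly equal, with 2.48 in the bleomycin and 2.46 in the PBS libraries. The share of all tested genes that differ more among the bleomycin libraries is not given here. For Inmt the ratio was 8.98 in the bleomycin and 1.65 in the PBS libraries, and for Pdgfra 3.33 in the bleomycin and 1.46 in the PBS libraries. Set against the PBS mean of each gene, the median gene stood at 19.9% in bleomycin replicate 1, 41.5% in replicate 2 and 53.1% in replicate 3. Replicate 1 was the lowest bleomycin library for 7 genes (Lum, Inmt, Mfap4, Pdgfra, Tagln, Npnt and Eln), and replicate 3 the highest for 7 (Dcn, Inmt, Mfap4, Pdgfra, Tcf21, Npnt and Eln). Among all tested genes 32.9% were lowest in replicate 1 and 32.5% highest in replicate 3. Acta2 alone of the 10 was lowest in replicate 3, at 40.0% of its PBS mean, with 66.9% in replicate 1 and 75.9% in replicate 2.

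The AT2 genes ran otherwise over the same libraries: 12 of the 14 tested were lowest in bleomycin replicate 3 and 0 were highest there, beside 40.6% and 32.5% of all tested genes. All 8 fibrillar collagen genes were lowest in replicate 1 and highest in replicate 3, beside 32.9% and 32.5% of all tested genes. In the smooth muscle contractile list, 6 of 12 genes were lowest in replicate 1 and 6 in replicate 3, beside 32.9% and 40.6% of all tested genes, and 8 were highest in replicate 2. Leukocyte genes were highest in replicate 1 for 8 of 10, and endothelial genes in replicate 2 for 10 of 12, beside 37.1% and 30.4% of all tested genes. The part that cell content plays in these differences or in the spread of the 10 genes was not tested.

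Ratios within a library compare the genes' proportions, with Pdgfra as the divisor, a choice made after the values had been seen. Npnt was at 1.54, 1.43 and 1.19 times Pdgfra in the bleomycin libraries and at 1.48, 1.55 and 1.70 times in the PBS libraries. Mfap4 was at 2.36, 2.53 and 2.07 times Pdgfra in the bleomycin libraries and at 2.66, 2.05 and 2.10 times in the PBS libraries. The ratio of Acta2 to Pdgfra was 0.885, 0.479 and 0.159 in the bleomycin libraries and 0.264, 0.251 and 0.256 in the PBS libraries, so its highest value was 5.56 times its lowest after bleomycin and 1.05 times after PBS. For Tcf21 the highest ratio was 102 times the lowest after bleomycin and 1.59 times after PBS, for Inmt 3.68 and 2.22 times, and for Tagln 2.49 and 1.29 times. The order was the other way for Dcn, with 2.30 times after bleomycin and 3.73 times after PBS, for Lum, with 2.18 and 3.06 times, and for Eln, with 1.17 and 2.03 times. These ratios are descriptions and were not tested.

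**Figure D4:**
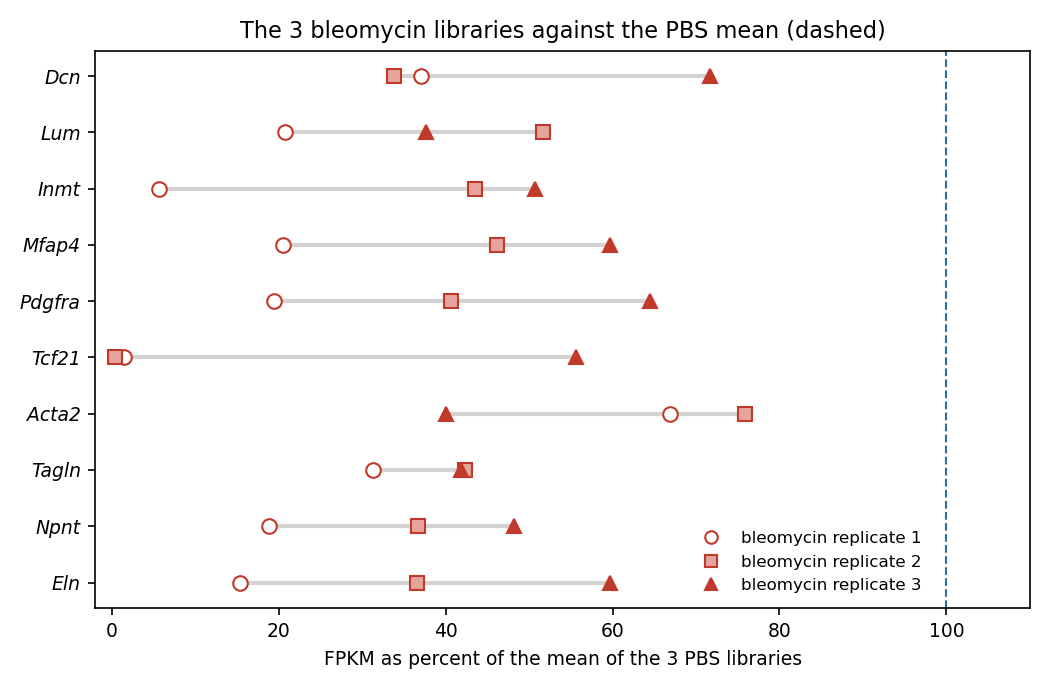
FPKM of each gene in each bleomycin library as a percentage of its mean over the 3 PBS libraries (x axis, dashed line at 100), with grey lines joining the lowest and the highest library. Replicate 1 is lowest for 7 genes and replicate 3 highest for 7, Acta2 is lowest in replicate 3, and Tcf21 lies at 1.41% and 0.344% in replicates 1 and 2.

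Genes of the same cells and structures gave the setting for the 10. Over 101 tested genes on lists of mesenchymal cells, matrix and their signals, members of the 10 left out, 34 fell and 4 rose. Of all tested genes 7.34% fell and 15.2% rose. The number of the 101 that fell was between 10 and 49 when each library was left out in turn. It was 10 without PBS replicate 3, 11 without PBS replicate 1, 13 without bleomycin replicate 2 and 15 without PBS replicate 2. In those fits, in that order, 457, 473, 508 and 514 of all tested genes fell, in place of 905. The 4 of the 101 that rose were Emilin2, Mkl1, Spp1 and Pdgfb.

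Of 8 tested genes of fibrillar and related collagens 7 fell and 0 rose, with a median log2 fold change of -1.67. Col3a1 fell to 155 ± 76.7 FPKM after bleomycin, against 537 ± 103 FPKM after PBS (SD, n = 3 each; -1.90, adjusted p = 0.0198), a call lost without bleomycin replicate 2 or PBS replicate 1 or 3 (adjusted p 0.0530 to 0.0669). Col1a1, a chain of type I collagen, had 30.8, 76.3 and 131 FPKM in the bleomycin libraries, against 318, 267 and 242 FPKM in the PBS libraries (adjusted p = 0.0317), a call lost without bleomycin replicate 2 or without any PBS library (0.0746 to 0.0933).

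Of 16 tested genes of elastic fibre assembly, which act with Eln and Mfap4, 8 fell and 1 rose, with a median of -1.20. Loxl1, a lysyl oxidase that crosslinks elastin, fell to 13.5 ± 6.64 FPKM after bleomycin, against 104.0 ± 49.6 FPKM after PBS (SD, n = 3 each; -2.82, adjusted p = 0.0104). The microfibril gene Mfap5 fell by 2.17 and the fibulin gene Fbln5 by 1.31 on the log2 scale (adjusted p = 0.00364 and 0.00964). Lox, the founding lysyl oxidase, was not called (-0.80, adjusted p = 0.185). Emilin2, an elastin-microfibril interface protein, rose (1.62, adjusted p = 0.00932). Of the 6 tested proteoglycan genes related to Dcn and Lum 3 fell, namely Aspn (-1.51), Omd (-1.17) and Ogn (-1.31, lost without bleomycin replicate 2 or any PBS library, adjusted p 0.0556 to 0.0936), and 0 rose, while Bgn, which encodes biglycan, missed the threshold (-1.23, adjusted p = 0.0586).

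Of 12 tested alveolar fibroblast genes 6 fell and 0 rose (median -1.27), and of 13 adventitial fibroblast genes 7 fell and 0 rose (median -1.39). In the alveolar list Cxcl14, a chemokine, fell to 12.5 ± 5.29 FPKM after bleomycin, against 115 ± 62.9 FPKM after PBS (SD, n = 3 each; -2.98, adjusted p = 0.0117), and Wnt2, a Wnt ligand of lung mesenchyme, fell by 1.32 (adjusted p = 0.00956). In the adventitial list Pi16, a marker of fibroblasts around vessels, fell to 21.1 ± 9.28 FPKM after bleomycin, against 68.2 ± 11.5 FPKM after PBS (SD, n = 3 each; -1.72, adjusted p = 0.0116). Among the bleomycin libraries, 11 of 12 alveolar and 11 of 13 adventitial genes were lowest in replicate 1. So were 7 of the 10 genes, beside 32.9% of all tested genes. At an unadjusted p under 0.05, 0 of the alveolar, fibrillar collagen and proteoglycan genes and 1 of the adventitial genes were higher. The calls of Mfap5, Fbln5, Loxl1, Emilin2, Aspn, Omd, Wnt2, Cxcl14 and Pi16 held in every alternative that tested them.

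Of 12 tested contractile genes beside Acta2 and Tagln 1 fell, Actc1 (-0.99, adjusted p = 0.0299), a cardiac actin gene, and 0 rose, with a median of -0.53 and all 12 fold changes below 0. Actc1 was not called without bleomycin replicate 1 or 3 or PBS replicate 1 or 3 (0.0654 to 0.0848). At an unadjusted p under 0.05 the list had 7 lower and 0 higher, beside the shares of 13.8% and 23.0% over all tested genes. Myh11, smooth muscle myosin heavy chain, had 5.09, 5.46 and 2.91 FPKM in the bleomycin libraries and 5.86, 4.91 and 6.44 FPKM in the PBS libraries, which overlap (-0.32, adjusted p = 0.381). Mylk, the myosin light chain kinase gene, had -1.23 (adjusted p = 0.0533). Of 6 tested pericyte genes 0 were called by limma (3 were lower at an unadjusted p under 0.05), and Pdgfrb, the other receptor of platelet-derived growth factor, had -0.85 (adjusted p = 0.313).

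Of 10 tested genes of myofibroblasts and activated fibroblasts (median -0.39) 2 fell, Aspn and the hedgehog-binding gene Hhip (-1.10, adjusted p = 0.0257, and 0.0541 to 0.0830 without bleomycin replicate 1 or 2 or PBS replicate 2 or 3), and 1 rose. The riser was Spp1, osteopontin, which macrophages also make, at 120.8, 54.0 and 96.1 FPKM in the bleomycin libraries and 3.24, 1.32 and 13.1 FPKM in the PBS libraries (4.07, adjusted p = 0.00705). Of 14 tested transcription factor genes of lung mesenchyme, to which Tcf21 is related by role, 0 fell in limma (6 were lower at an unadjusted p under 0.05) and 1 rose, Mkl1 (1.36, adjusted p = 0.00268), a coactivator of serum response factor that is not limited to mesenchyme; it was not called on the highest transcript alone (adjusted p = 0.476). Among ligands of Pdgfra, Pdgfa had -0.17 (adjusted p = 0.472). Pdgfb, which endothelial cells make, rose to 3.94 ± 1.65 FPKM after bleomycin, against 1.17 ± 0.405 FPKM after PBS (SD, n = 3 each; adjusted p = 0.0296), and missed the threshold in each of the 5 fits without bleomycin replicate 1 or 2 or without a PBS library (0.0510 to 0.0921) and with quantile normalization (0.0771).

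Mesothelial cells, which cover the lung and share matrix genes with fibroblasts, gave 0 calls in limma among 8 tested markers, 0 also at an unadjusted p under 0.05, with a median of -0.01. Their summed FPKM was 73.5 to 104 in the bleomycin libraries and 53.9 to 169 in the PBS libraries. Of 14 tested AT2 genes 13 fell and 0 rose, beside 7.34% and 15.2% of all tested genes. The AT2 median was -1.89, against -1.38 for the 10 genes. AT1 genes, of the other alveolar epithelial cell, gave 2 calls among 13, Cldn18 (-1.36) and Ager (-1.24), both lower. Their median was -0.32, and 8 of the 13 fold changes were below 0. At an unadjusted p under 0.05, 4 of the 13 were lower and 1 higher, beside 13.8% and 23.0% of all tested genes. The higher gene was Hopx, chosen after its values were seen (1.35, limma adjusted p = 0.133).

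**Figure D5:**
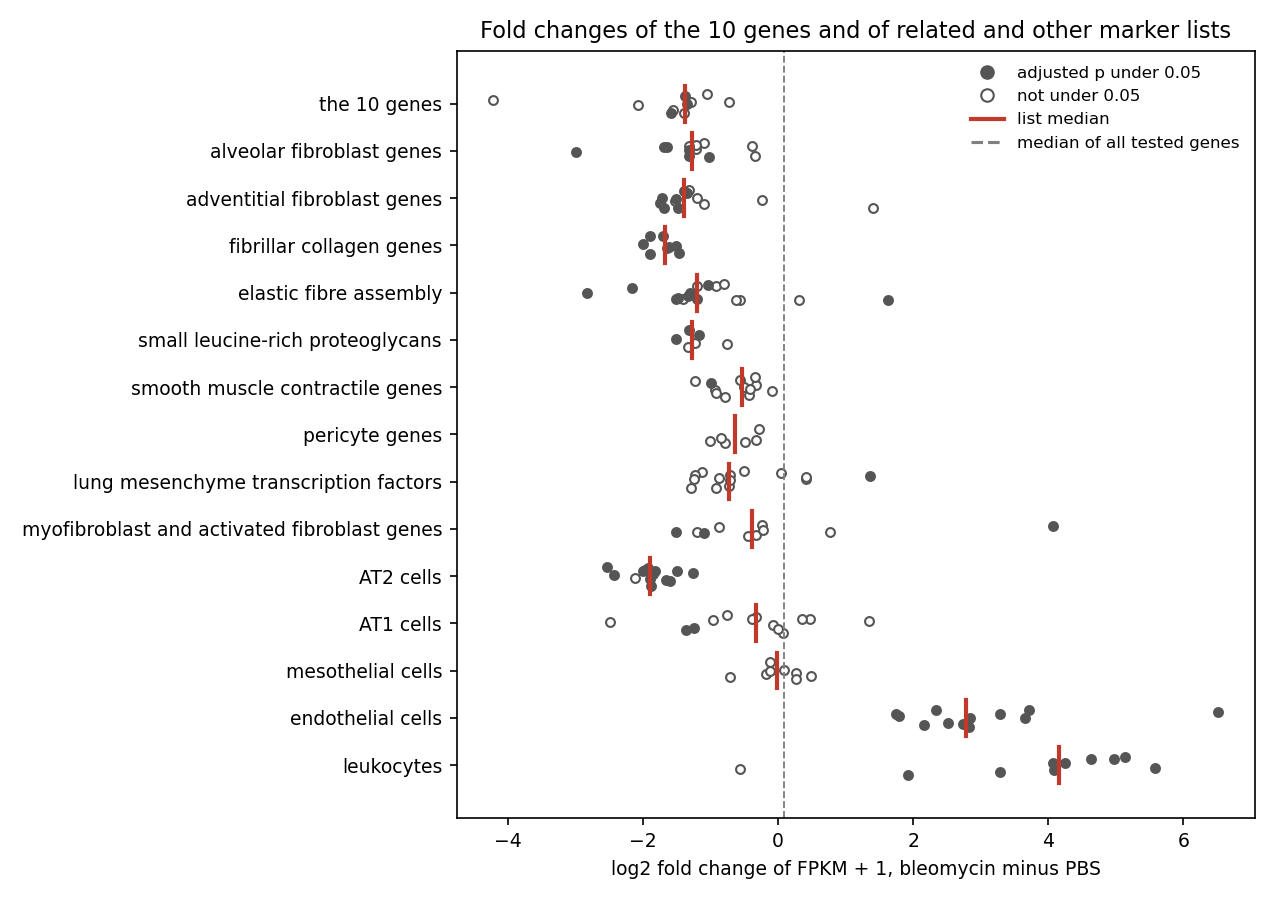
Log2 fold changes (x axis, bleomycin minus PBS, limma on log2(FPKM + 1)) of the 10 genes and of the tested genes of related and other marker lists, 1 point per gene, with red lines for list medians and a dashed line for the median of all tested genes (0.09). The alveolar and adventitial fibroblast, collagen and proteoglycan lists have medians of -1.67 to -1.27, the myofibroblast list -0.39, the contractile list -0.53 and the endothelial and leukocyte lists 2.78 and 4.17. The AT2 list has a median of -1.89, the lowest shown, and the AT1 list -0.32.

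The genes with the most similar pattern over the 6 libraries were taken by Euclidean distance between centred log2(FPKM + 1) values, as a description. Among the nearest to Pdgfra were Svep1 (distance 0.171) and Ltbp1 (0.221). Nearest to Npnt were Col6a1 (0.190), Scube2 (0.304) and Mrc2 (0.335), with Col6a1 at 50.5, 90.9 and 123.8 FPKM in the bleomycin libraries and 195.9, 236 and 287 FPKM in the PBS libraries. Those nearest to Mfap4 were Timp1 (0.235), Lamb1 (0.235) and Gpr153 (0.259), and those nearest to Eln were Lamc1 (0.395), Col5a2 (0.432) and Fbn1 (0.499). Several of these encode matrix proteins, among them the collagen chains Col6a1 and Col5a2, the laminin chains Lamb1 and Lamc1 and the microfibril protein Fbn1.

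For Tagln the nearest genes were Ttc23 (0.157), Acss3 (0.182) and Tmem150c (0.216), and for Acta2 they were Tmem220 (0.221), Pkp2 (0.259) and Ngef (0.271). No gene stood among the nearest of more than 1 of the 10. Dcn was nearest to Igf1 (0.592), Ptgfr (0.621) and Pamr1 (0.632), and Lum to Ndufa4l2 (0.464), Rcn3 (0.515) and B3gnt9 (0.611). Inmt had Igfbp4 (0.733), Slc48a1 (0.989) and Alg2 (1.04), with Igfbp4 at 14.5, 91.1 and 112 FPKM in the bleomycin libraries and 218, 129.8 and 131 FPKM in the PBS libraries. Tcf21 had no close neighbour: the nearest were Gm11808 (2.66), Rnf113a2 (3.28) and Rps27rt (3.59), each with 1 exon and each at 0 in bleomycin replicates 1 and 2.

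Some of the 10 genes overlap others in the GENCODE M21 annotation. Pdgfra shares 599 bases with the antisense gene Gm42802, 451 with Gm42803 and 74 with Mir7025, and Npnt shares 107 with Gm23196. Tcf21 lies wholly within the antisense gene Gm10824, Tagln shares 3627 bases with the antisense gene Gm48529 and 99 with Pcsk7, Eln 282 with the antisense gene Gm30003, and Mfap4 89 with Mapk7. The library kit keeps the strand, but whether the counting used it is not stated in the sources used here, so reads of these partners may be included. Inmt, Dcn, Lum and Acta2 overlap no annotated gene.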

How the data were processed

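Total RNA of 6 mouse AT2 preparations was extracted with TRIzol and sequenced after library synthesis with a stranded KAPA kit, per the labels' protocols. HISAT2, StringTie, FastQC 0.10.1 and mm10 are named in the submitters' processing notes; settings and annotation are not stated in these sources. The authors deposited FPKM per transcript, 24647 protein-coding transcripts in each file, per the file headers, of which 21364 have the same version in GENCODE M21. FPKM were summed by gene ID. Read depth is unknown, and whole reads could not be recovered from the values, so no counting interval is given.

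Genes at 1 FPKM or more in at least 3 of 6 libraries were tested (12326, all 10 genes among them) on log2(FPKM + 1) with limma 3.58.1 in R 4.3.3 (lmFit, trended eBayes, no covariates), Benjamini-Hochberg adjustment over all tested genes and a threshold of 0.05. Fold changes on this scale understate the change of low genes. The filter can be passed through the 3 libraries of 1 group. The test was checked on simulated data. The design gives 3 mice and 3 libraries per group, and p-values measure only the spread between these libraries, which may be in part technical. The 10 genes, the lists and the rule for named genes (all 10, up to 4 genes of smallest adjusted p per list, some key markers, and 3 nearest genes per member) were chosen with earlier results of these data known. Genes named outside that rule are said to be chosen after their values were seen. Alternatives covered the pseudocount, the filter, scaling, transcript sum, variance model, library weights, replicate block and each library left out. Not every gene that the rule for named genes takes is reported here.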

Additional observations from a re-analysis of the deposited data

How the results depend on the processing

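Under 17 alternatives no fold change of the 10 genes changed sign, and none of the 10 was called higher. The number called lower was 3 in the main fit. It was 2 with a pseudocount of 0.1, with no filter, with equal summed FPKM and with the highest transcript alone. In those fits, in that order, 815, 869, 796 and 684 of all tested genes were called lower. Of the 10 genes 5 were called lower with equal medians and 6 with library weights. When each library was left out the number was between 1 and 6. It was 1 without bleomycin replicate 2 or PBS replicate 3 and 6 without bleomycin replicate 3. Over all tested genes 905 were called lower in the main fit, 1412 with equal medians and 1100 with library weights. Without bleomycin replicate 2 this number was 508, without PBS replicate 3 it was 457 and without bleomycin replicate 3 it was 873. Dcn, Inmt and Acta2 were called in none of the 17 and Tagln in all 17. The related mesenchymal genes called lower numbered 34, and between 10 and 49 with each library left out, fits in which between 457 and 873 of all tested genes were called lower. The replicate numbers were not taken to pair the libraries, since same-numbered libraries deviated with correlations of -0.0043, 0.0172 and 0.0391. With the replicate block 3 of the 10 genes were lower (Tagln, Npnt and Pdgfra, the last with adjusted p = 0.0343), and Mfap4 lost its call (0.0535). Over all genes 563 fell and 1359 rose with the block, in place of 905 and 1871. Of the related genes named above, Col1a1 and Actc1 also lost their calls with the block (limma adjusted p = 0.0620 and 0.0876). Signs of uncalled mesothelial genes turned: Lrrn4 was at -0.0037 and Wt1 at -0.0119 with quantile normalization, and with each library left out Lrrn4 ranged from -0.087 to 0.47, Wt1 from -0.085 to 0.72 and Msln from -0.50 to 0.29. The cause of these changes was not tested. Depth is unknown, so the counting error of low values such as those of Lum cannot be given.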
